A study of Mus musculus with 4 samples.

Results

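A set of 10 genes that mark the hormone-secreting cells of the gut lining was followed across 4 RNA sequencing libraries of mouse colon. They are Nts, Gcg, Pyy, Insl5, Sst, Cck, Chga, Chgb, Tph1 and Neurod1. The genes were taken by symbol from a table of 24016 genes, and all 10 were present in 1 copy each. All 10 also reached a mean level of at least 1 CPM (counts scaled to library size) over the libraries, as 14450 genes of the table did. The mice were germ-free C57BL/6 animals of 7 weeks, bought in, and 1 library stood for each of 4 conditions. One group was left untreated, and the time at which its tissue was taken is not given. The other groups received an oral gavage of phosphate-buffered saline (PBS), of Escherichia coli or of Lactobacillus rhamnosus GG (LGG), a probiotic strain, with both bacteria labelled 2x10E9 (cfu/mL in the protocol), and 4 cm of colon was removed 4 h later. For the gavaged groups 4 mice each are named, but the labels do not say whether RNA was pooled or from which end of the colon the piece came. No difference below has a replicate check and none has a p-value, and intervals cover counting error only. They may be too narrow even for that, as reads copied by PCR and carrying no molecular identifier do not each stand for a molecule.

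Enteroendocrine cells are scattered single cells of the epithelium that sense the gut lumen and release peptides or serotonin. L cells make the glucagon-like peptides (from Gcg), peptide YY (Pyy) and, mainly in the lower colon, insulin-like peptide 5 (Insl5). Neurotensin (Nts) is made in L-type or N cells, somatostatin (Sst) in D cells, cholecystokinin (Cck) in I cells, and serotonin in enterochromaffin cells, whose rate-limiting enzyme is tryptophan hydroxylase 1 (Tph1). Chromogranins A and B (Chga, Chgb) are packed with the hormones in secretory granules. Neurod1 is a basic helix-loop-helix transcription factor of cells entering this lineage. Somatostatin, chromogranin B and cholecystokinin are also made by neurons, including those of the gut wall.

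Library totals ran from 16289580.0 counts (PBS) to 29899371 (LGG), with 27220697 in the untreated and 29368008 in the E. coli library. Scaling factors from the trimmed mean of M-values (TMM) lay between 0.979 and 1.05. Markers of the labelled tissue were abundant in each library, with epithelial genes summing to 18012 to 21992 CPM and smooth muscle genes to 11624 to 14050 CPM. In whole-tissue RNA, fewer cells of a type and less RNA per cell cannot be told apart.

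Per length of transcript, Pyy gave the highest level of the 10 genes in each library, at 124 CPM per kb untreated, 130.4 after PBS, 143 after E. coli and 134 after LGG. Neurod1 gave the lowest, between 0.576 and 1.14 CPM per kb. In the untreated library the order below Pyy was Gcg (65.5 CPM per kb), Insl5 (58.4), Chgb (51.9), Sst (42.5), Chga (37.0), Nts (15.5), Tph1 (4.41) and Cck (2.89), with no neighbours' counting intervals overlapping. In the gavaged libraries Insl5 stood above Gcg, with 102 against 45.6 CPM per kb after PBS, 117 against 48.1 after E. coli and 102 against 51.8 after LGG. Sst and Chga overlapped there, and so did Tph1 and Cck, whereas in the LGG library Chgb (32.0) and Sst (29.3) also could not be ordered. The plot of levels by library is in CPM, not divided by length, and there Chgb is highest in each library.

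**Figure D1:**
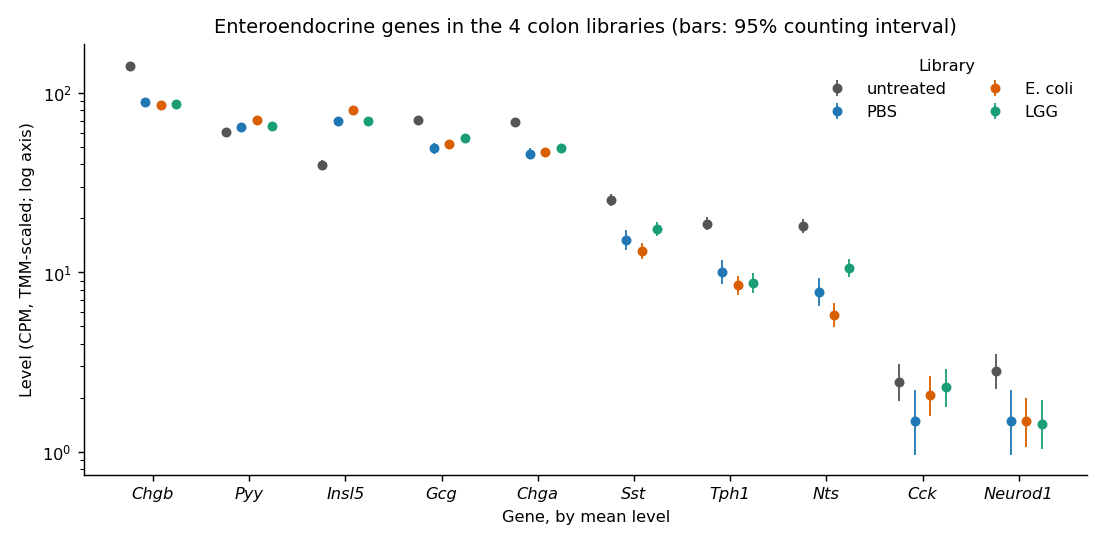
Level of each gene (x axis) in CPM on a log axis (y axis); each point is 1 library and each bar its 95% counting interval. The untreated point is the highest of the 4 for 8 genes and the lowest for Pyy (61.0 CPM) and Insl5 (39.8 CPM).

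Promoter sequence is shown for genes that went opposite ways against the untreated library, Insl5 (higher) and Gcg (lower), and for the 2 members, Sst and Chgb, that hold a full cAMP response element. Each line gives the 150 bases before the RefSeq start, 5′ to 3′ on the gene's strand, with motif matches in capitals. The sequences and coordinates are of RefSeq on GRCm38.p6, not of mm9, the build of the count table. The Gcg stretch is chr2:62483654-62483803 (minus strand), that of Insl5 chr4:103026729-103026878 (minus strand, the downstream of 2 listed starts), that of Sst chr16:23890845-23890994 (minus strand) and that of Chgb chr2:132781492-132781641 (plus strand).
Gcg: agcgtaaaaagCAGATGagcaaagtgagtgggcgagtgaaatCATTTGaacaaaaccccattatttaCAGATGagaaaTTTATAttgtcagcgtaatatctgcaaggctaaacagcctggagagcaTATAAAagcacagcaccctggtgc
Insl5: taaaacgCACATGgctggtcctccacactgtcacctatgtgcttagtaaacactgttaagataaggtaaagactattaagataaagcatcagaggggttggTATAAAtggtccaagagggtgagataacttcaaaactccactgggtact
Sst: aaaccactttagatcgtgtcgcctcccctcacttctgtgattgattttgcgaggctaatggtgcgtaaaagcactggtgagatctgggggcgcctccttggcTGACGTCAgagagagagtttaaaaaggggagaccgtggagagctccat
Chgb: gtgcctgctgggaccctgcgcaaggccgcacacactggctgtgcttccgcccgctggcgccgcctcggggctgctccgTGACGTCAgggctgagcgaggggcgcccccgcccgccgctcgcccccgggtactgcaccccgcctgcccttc

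The motifs searched on both strands, over 250 bases before each start, were the E-box CANNTG bound by factors of the Neurod1 class, the cAMP response element TGACGTCA, its half-site TGACG, which the full element contains, and the TATA box TATAAA. An E-box was found in 9 of the 10 genes, all but Tph1, and in 66.2% of 32851 RefSeq mouse promoters of the same length. The full response element lay 48 bases before the start in Sst and 72 bases before it in Chgb, against 1.55% of all promoters. Its half-site was in 6 members (Nts, Sst, Cck, Chga, Chgb and Tph1) and in 17.8% of all promoters. TATAAA was in 2 members, Gcg (24 bases before the start) and Insl5 (49 bases before the start shown), and in 12.4% of all promoters. The Gcg and Insl5 stretches printed above both carry an E-box and a TATA box. Any bearing of these matches on the levels was not tested. A match describes letters and is not a measured binding site.

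PBS against untreated sets vehicle gavage beside no gavage. The size rule asked for a difference of 2-fold or more (1 on the log2 scale), a 95% counting interval that left out 0, and a mean of at least 1 CPM. Most hormone genes were at a lower level after PBS, Pyy was nearly level and Insl5 was higher. The median log2 ratio of the 10 genes was -0.69, beside 0.00 over all 14450 genes, as in every other comparison below. The counting interval lay below 0 for 8 members and above 0 for 1, where 18.3% and 20.3% of all genes did so. Past the size rule 1 member was lower (Nts) and 0 were higher, where 0.782% and 0.664% of all genes were.

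Among the L-cell hormones, Gcg (NM_008100; chromosome 2, 62312587 to 62321710 in mm9, minus strand) was at 70.9 CPM untreated, 49.4 after PBS, 52.1 after E. coli and 56.1 after LGG. The 3 gavaged libraries were all below the untreated one, with log2 ratios of -0.52 (-0.64 to -0.40) for PBS, -0.45 (-0.54 to -0.35) for E. coli and -0.34 (-0.43 to -0.24) for LGG. Pyy (NM_145435; chromosome 11, 101967991 to 101969090, minus strand) was at 61.0, 64.3, 70.4 and 65.9 CPM in the same order. It varied least of the 10 genes, with a highest to lowest ratio of 1.15, and its ratio for PBS was 0.08 (-0.04 to 0.19). The sign of that small ratio depended on scaling, at -0.01 with library totals and -0.14 when centred on epithelial genes.

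Insl5 (NM_011831; chromosome 4, 102690478 to 102699333, minus strand) was at 39.8 CPM untreated, 69.5 after PBS, 80.0 after E. coli and 69.5 after LGG. The untreated library was the lowest and the E. coli library the highest. Insl5 was 1.75-fold higher after PBS, at a log2 ratio of 0.80 (0.68 to 0.93), and the LGG ratio to untreated was also 0.80 (0.70 to 0.91). The E. coli ratio, 1.01 (0.90 to 1.11), sat on the 2-fold threshold: with upper-quartile scaling it was 0.998, with library totals 0.92 and when centred on epithelial genes 0.82, all short of it.

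Nts (NM_024435; chromosome 10, 101944390 to 101953052, minus strand) varied most of the 10 genes. It had 518 counts (18.1 CPM) untreated, 125 (7.79 CPM) after PBS, 169 (5.82 CPM) after E. coli and 310 (10.6 CPM) after LGG. Each gavaged library was below the untreated one, and no interval of these ratios reached 0. Nts was 2.33-fold lower after PBS (log2 -1.22, -1.51 to -0.94) and 3.11-fold lower after E. coli (-1.64, -1.90 to -1.39), while the LGG ratio of -0.78 (-0.98 to -0.57) stayed short of 2-fold.

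Sst (NM_009215; chromosome 16, 23889667 to 23890930, minus strand), whose product holds back the release of other hormones, was at 25.3 CPM untreated, 15.2 after PBS, 13.2 after E. coli and 17.4 after LGG. As with Nts, the E. coli library was lowest and the LGG library highest of the gavaged ones. The ratios to untreated were -0.73 (-0.95 to -0.52), -0.94 (-1.12 to -0.76) and -0.54 (-0.70 to -0.37) for PBS, E. coli and LGG. The E. coli ratio was past 2-fold with library totals (-1.02) and when centred on epithelial genes (-1.13). Cck (NM_001284508; chromosome 9, 121398942 to 121404812, minus strand) was scarce, with 70, 24, 60 and 67 counts and 2.45, 1.496, 2.07 and 2.29 CPM. Its PBS library was lowest, at a ratio of -0.71 (-1.45 to -0.03), and the E. coli (-0.25, -0.77 to 0.27) and LGG (-0.10, -0.60 to 0.41) ratios had intervals that held 0.

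The granule protein Chgb (NM_007694; chromosome 2, 132607014 to 132620808, plus strand) was at 141.5 CPM untreated, 89.0 after PBS, 85.4 after E. coli and 87.2 after LGG. Chga (NM_007693; chromosome 12, 103793179 to 103803237, plus strand) was at 69.3, 46.0, 47.0 and 49.3 CPM. For both chromogranins the 3 gavaged libraries lay close together under the untreated one. The Chgb ratios were -0.67 (-0.76 to -0.58), -0.73 (-0.80 to -0.66) and -0.70 (-0.77 to -0.63) for PBS, E. coli and LGG, and the Chga ratios -0.59 (-0.72 to -0.47), -0.56 (-0.66 to -0.46) and -0.49 (-0.59 to -0.39).

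Tph1 (NM_001136084; chromosome 7, 53900011 to 53922747, minus strand), the enzyme of serotonin synthesis, was at 18.7 CPM untreated, 10.1 after PBS, 8.47 after E. coli and 8.75 after LGG. It was 2.21-fold lower than untreated after E. coli (-1.14, -1.37 to -0.92) and 2.14-fold lower after LGG (-1.10, -1.32 to -0.88), both past the size rule, and at -0.89 (-1.15 to -0.63) after PBS. Neurod1 (NM_010894; chromosome 2, 79292798 to 79296793, minus strand) had 81, 24, 43 and 42 counts, or 2.84, 1.496, 1.48 and 1.44 CPM. Its gavaged libraries were alike and near 2-fold under the untreated one, at -0.91 (-1.65 to -0.25) for PBS, -0.93 (-1.51 to -0.39) for E. coli and -0.97 (-1.56 to -0.43) for LGG. All 3 Neurod1 ratios were past 2-fold with library totals (-1.003, -1.01 and -1.07) and when centred on epithelial genes (-1.13, -1.12 and -1.22). They were short of it with a prior of 5 counts (-0.83, -0.86 and -0.90) and with DESeq2 or upper-quartile factors. With fractions of counts dropped only the LGG ratio was past it (-1.01).

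Set against the untreated library, the bacterial libraries gave similar counts of members, and these comparisons share that library with the PBS one. With E. coli the intervals of 7 members lay below 0 and of 2 above, where 22.4% and 24.9% of all genes did so. Past the size rule 2 members were lower (Nts and Tph1) and 1 was higher (Insl5), where 1.53% and 0.824% of all genes were. With LGG 7 members had intervals below 0 and 2 above, where 23.0% and 24.7% of all genes did so, and 1 was lower past the rule (Tph1) and 0 higher, where 0.588% and 0.457% of all genes were. The medians were -0.64 for E. coli and -0.51 for LGG.

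**Figure D2:**
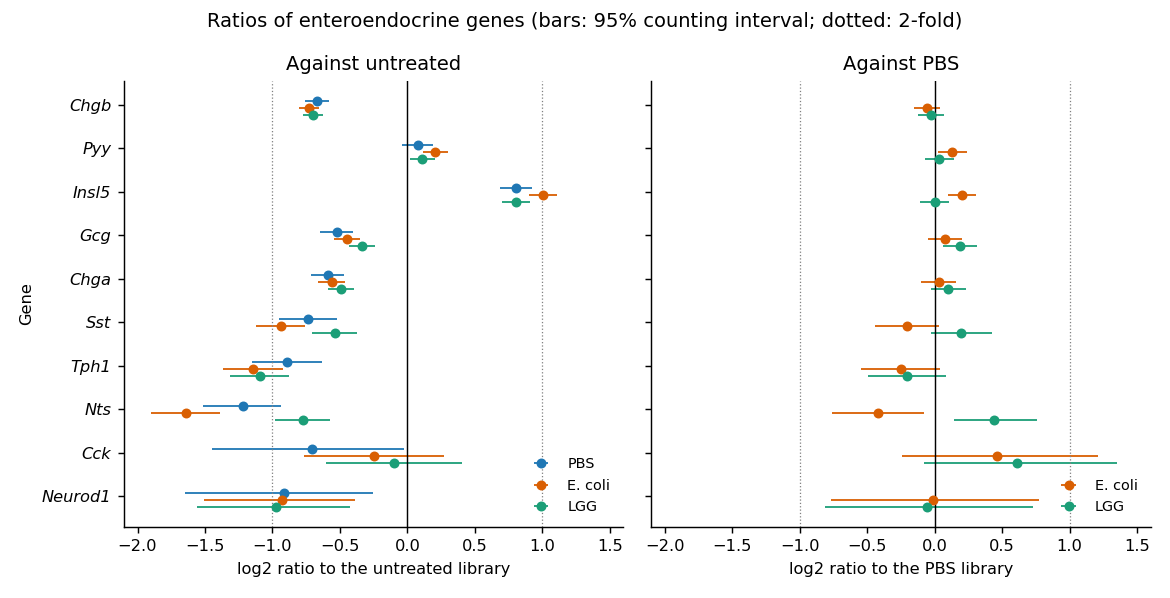
Log2 ratio of each gene (y axis) to the untreated library (left) and to the PBS library (right); points are ratios, bars 95% counting intervals and dotted lines 2-fold. On the left most points lie below 0 and Insl5 reaches 1.01 after E. coli; on the right Nts stands at 0.44 after LGG and -0.42 after E. coli.

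Ratios taken inside 1 library need no scaling between libraries, and they show the L-cell hormones shifting against each other. For each count of Gcg there were 0.561 (0.521 to 0.604) counts of Insl5 in the untreated library, 1.41 (1.29 to 1.55) after PBS, 1.54 (1.44 to 1.64) after E. coli and 1.24 (1.16 to 1.32) after LGG. Pyy counts per count of Gcg were 0.860, 1.30, 1.35 and 1.17. Insl5 thus went from fewer to more counts than Gcg, and Pyy did as well.

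For Nts the counts per count of Gcg were 0.256 (0.232 to 0.282) untreated, 0.158 (0.130 to 0.191) after PBS, 0.112 (0.0948 to 0.131) after E. coli and 0.189 (0.167 to 0.213) after LGG. Nts was therefore lower in the gavaged libraries also relative to another hormone that was itself lower there. Gcg counts per count of Chga stayed between 1.02 and 1.14. Tph1 counts per count of Chga were 0.270 (0.245 to 0.297) untreated, 0.220 (0.184 to 0.261) after PBS, 0.180 (0.157 to 0.207) after E. coli and 0.178 (0.155 to 0.203) after LGG.

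Summed over the 6 peptide hormones, levels were close across libraries, at 217.7 CPM untreated, 207.7 after PBS, 223.5 after E. coli and 221.9 after LGG. The makeup of that sum differed: Insl5 supplied 18.3% of the hormone counts in the untreated library (exact 95% interval 17.3% to 19.3%) and 33.5%, 35.8% and 31.3% after PBS, E. coli and LGG. Gcg supplied 32.6% in the untreated library and 23.8%, 23.3% and 25.3% in the others. Nts supplied 8.34%, 3.75%, 2.60% and 4.78%. Chga, Chgb, Tph1 and Neurod1 together summed to 232.4, 146.6, 142.4 and 146.7 CPM, lower in each gavaged library than in the untreated one.

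**Figure D3:**
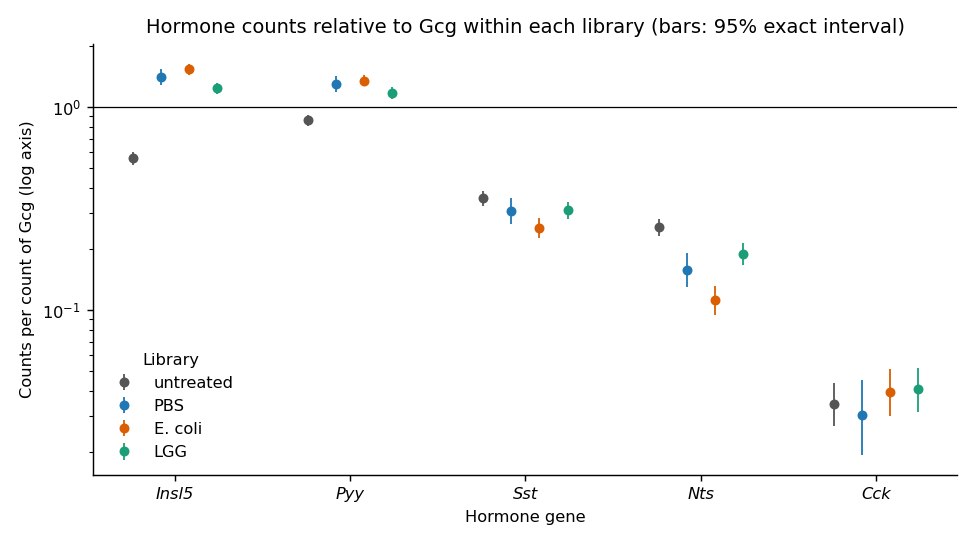
Counts of each hormone gene (x axis) per count of Gcg in the same library, on a log axis (y axis); points are libraries and bars exact 95% intervals. Insl5 lies at 0.561 in the untreated library and above 1 in the other 3, whereas Nts is highest in the untreated library at 0.256.

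The question of the series is the response to the bacteria, and for that PBS is the control with the same handling. With LGG against PBS, 0 members were higher and 0 lower past the size rule, where 0.180% and 0.0969% of all genes were. Intervals lay above 0 for 2 members (Nts and Gcg) and below 0 for 0, where 14.3% and 13.1% of all genes did so. With E. coli against PBS, 0 members were higher and 0 lower past the rule, where 0.173% and 0.242% of all genes were. Intervals lay above 0 for 2 members (Pyy and Insl5) and below 0 for 1 (Nts), where 10% and 8.93% of all genes did so. The medians were 0.07 and 0.01, and the comparisons share the PBS library.

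Nts was the only member whose interval left out 0 against PBS with both bacteria. Its log2 ratio to PBS was 0.44 (0.14 to 0.76) for LGG and -0.42 (-0.76 to -0.08) for E. coli. Against each other, LGG was 1.82-fold above E. coli, at 0.86 (0.59 to 1.14), the largest difference of the 10 genes in that comparison and short of 2-fold. Insl5 had a ratio of 0.20 (0.10 to 0.31) for E. coli and -0.00 (-0.11 to 0.11) for LGG against PBS. For Gcg the LGG ratio was 0.19 (0.06 to 0.31) and the E. coli ratio 0.08 (-0.05 to 0.20). Cck had larger ratios, 0.61 (-0.08 to 1.35) and 0.46 (-0.24 to 1.21), but on 24 counts in the PBS library both intervals held 0.

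In LGG against E. coli, 3 members had intervals above 0 (Nts, Sst and Gcg) and 2 below (Pyy and Insl5), where 16.4% and 16.2% of all genes did so. Past the size rule 0 were higher and 0 lower, where 0.263% and 0.0969% of all genes were. The Sst ratio was 0.40 (0.21 to 0.60) and the Insl5 ratio -0.20 (-0.29 to -0.12). For Chga, Chgb, Tph1 and Neurod1 each bacterial ratio to PBS had an interval that held 0, with Tph1 at -0.21 (-0.50 to 0.09) for LGG and -0.25 (-0.55 to 0.04) for E. coli. Intervals of that width do not show that these libraries were equal.

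Genes that process and store hormones mostly had negative ratios to the untreated library too. Some of them, such as Scg2 and Syp, are also expressed by neurons. Of 22 genes for granule proteins, prohormone convertases and their partners, 20 had negative ratios after PBS (median -0.38), 20 after E. coli (-0.57) and 20 after LGG (-0.28), where 49.7%, 49.0% and 50.3% of all genes were negative. The medians of the enteric neuron and glia list were -0.39, -0.69 and -0.31, and the part of neurons in this result was not tested. Past the size rule 2 of the 22 were lower after E. coli, where 1.53% of all genes were, and 0 after PBS or LGG, where 0.782% and 0.588% were. These were Sct, the gene of the hormone secretin and counted among the other gut hormones as well, at -1.08 (-1.29 to -0.88) and Rab3c, a GTPase of secretory vesicles, at -1.02 (-1.23 to -0.81). The most abundant of the list were Cpe, the carboxypeptidase that trims prohormones, at 274, 213, 194 and 226 CPM in the untreated, PBS, E. coli and LGG libraries, and Pam, which amidates peptides, at 226, 247, 243 and 235 CPM. Pam thus went the other way from Cpe.

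Among 16 measured transcription factors of the enteroendocrine lineage (20 listed), 12 had negative ratios after PBS, 14 after E. coli and 15 after LGG, with medians of -0.34, -0.16 and -0.25. Of all genes, 49.7%, 49.0% and 50.3% were negative. The intervals of Pax6, Isl1, Rfx6, St18, Lmx1a and Hhex held 0 in each of these comparisons. Foxa2 was higher in each, at 0.36 (0.20 to 0.52), 0.46 (0.33 to 0.60) and 0.37 (0.23 to 0.51) for PBS, E. coli and LGG. Etv1 was lower in each, at -0.52 (-0.74 to -0.31), -0.67 (-0.86 to -0.49) and -0.67 (-0.86 to -0.49) in the same order. Only Myt1, a zinc-finger factor, passed the size rule, after LGG at -1.02 (-1.81 to -0.30), where 0.588% of all genes were lower past it. Neurog3, which starts the lineage and acts before Neurod1, was at 1.61, 1.31, 1.58 and 1.16 CPM in the untreated, PBS, E. coli and LGG libraries. At 46, 21, 46 and 34 counts, its intervals against untreated all held 0.

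Other gut hormones were measured for 8 of the 15 listed genes in the table. Sct was at 21.6, 12.1, 10.2 and 18.2 CPM in the untreated, PBS, E. coli and LGG libraries, and Gal, the galanin gene, at 17.9, 10.1, 8.47 and 11.5 CPM. Both were past the size rule after E. coli alone, each at -1.08 against untreated, where 1.53% of all genes were lower past it. Of the 8 genes, 6 had negative ratios after PBS, 7 after E. coli and 6 after LGG, where 49.7%, 49.0% and 50.3% of all genes did. Sct resembled Nts in that LGG was above E. coli, with a ratio of 0.84 (0.63 to 1.05). Gast, the gastrin gene, was at 0 counts in all 4 libraries, which allows up to 0.105, 0.187, 0.103 and 0.103 CPM, and Gip, which encodes an incretin of the upper gut, was at 5, 0, 0 and 2 counts.

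Serotonin handling did not follow Tph1 as a group. Of 11 measured genes, Tph1 itself included, 4 were positive and 7 negative after PBS (median -0.03), 6 positive after E. coli (0.02) and 6 after LGG (0.06). Slc6a4, the transporter that takes serotonin back up, was at 11.2, 19.4, 26.7 and 18.2 CPM in the untreated, PBS, E. coli and LGG libraries. After E. coli it was past the size rule at 1.251 (1.06 to 1.45), while Tph1 was past it in the other direction. Of all genes, 0.824% were higher and 1.53% lower past the rule in that comparison. Ddc, which completes serotonin synthesis, was at 58.4, 61.2, 67.9 and 56.8 CPM.

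Receptors of the hormones showed no common direction, with 5 of 11 measured genes positive in each comparison with the untreated library. The Nts receptor Ntsr1 was at 2.31, 2.24, 1.24 and 1.64 CPM in the untreated, PBS, E. coli and LGG libraries, and Sort1, a sorting receptor that also binds Nts, at 372, 382, 413 and 379 CPM. For peptide YY, Npy1r was at 6.03, 10.3, 10.4 and 7.89 CPM and Npy2r at 3.47, 2.12, 1.65 and 1.44 CPM. Npy2r was past the size rule after LGG (-1.26, -1.83 to -0.74) and E. coli (-1.06, -1.60 to -0.56), and Npy1r was at 0.79 (0.51 to 1.07) after E. coli, so receptors of the same peptide diverged. Of the 11 measured receptors, 2 were lower past the rule after LGG and 1 after E. coli, where 0.588% and 1.53% of all genes were. In both, 0 were higher, where 0.457% and 0.824% of all genes were.

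The receptor of glucagon-like peptide 2, Glp2r, was at 20.7, 21.8, 22.6 and 21.1 CPM in the untreated, PBS, E. coli and LGG libraries. Glp1r had 4 to 6 counts and the Insl5 receptor Rxfp4 between 1 and 4 counts, too few to compare. Sstr1, a somatostatin receptor, was at 63.1, 48.2, 50.1 and 55.6 CPM. Sstr3 was past the size rule after LGG at -1.06 (-2.01 to -0.20) on 35 and 17 counts, where 0.588% of all genes were lower past it. The cholecystokinin receptor Cckar was at 8.76, 7.35, 6.09 and 8.89 CPM. Of 3 measured serotonin receptors, Htr2b was at 8.16, 4.74, 3.51 and 4.85 CPM and was past the rule after E. coli at -1.21 (-1.57 to -0.88), while Htr4 was at 14.8, 23.3, 25.1 and 17.8 CPM. After E. coli 1.53% of all genes were lower past the rule.

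Sensors of nutrients and microbial products had no common direction as a list, with 7, 9 and 7 of 13 measured genes negative for PBS, E. coli and LGG against untreated. Past the size rule 0 were higher, where 0.664%, 0.824% and 0.457% of all genes were. Lower past it were 1, 1 and 2 sensors, where 0.782%, 1.53% and 0.588% of all genes were. Among the measured sensors, Ffar2, a receptor for short-chain fatty acids, was at 27.6, 16.1, 15.1 and 19.3 CPM in the untreated, PBS, E. coli and LGG libraries, and Ffar4, a receptor for long-chain fatty acids, at 20.4, 14.0, 13.0 and 17.9 CPM. Olfr78, a further receptor for short-chain fatty acids, was past the rule after PBS at -1.16 (-1.61 to -0.75) and after LGG at -1.15 (-1.50 to -0.82), on 8.13, 3.61, 6.13 and 3.66 CPM. Of the subunits of the ATP-sensitive potassium channel, Abcc8 was past the rule after E. coli at -1.01 (-1.45 to -0.59), with -0.45 (-0.93 to -0.00) after PBS and -0.35 (-0.72 to 0.02) after LGG. Kcnj11 was past it after LGG at -1.10 (-1.85 to -0.42), with -0.48 (-1.28 to 0.25) after PBS and -0.89 (-1.59 to -0.23) after E. coli. In no library were both past the rule.

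**Figure D4:**
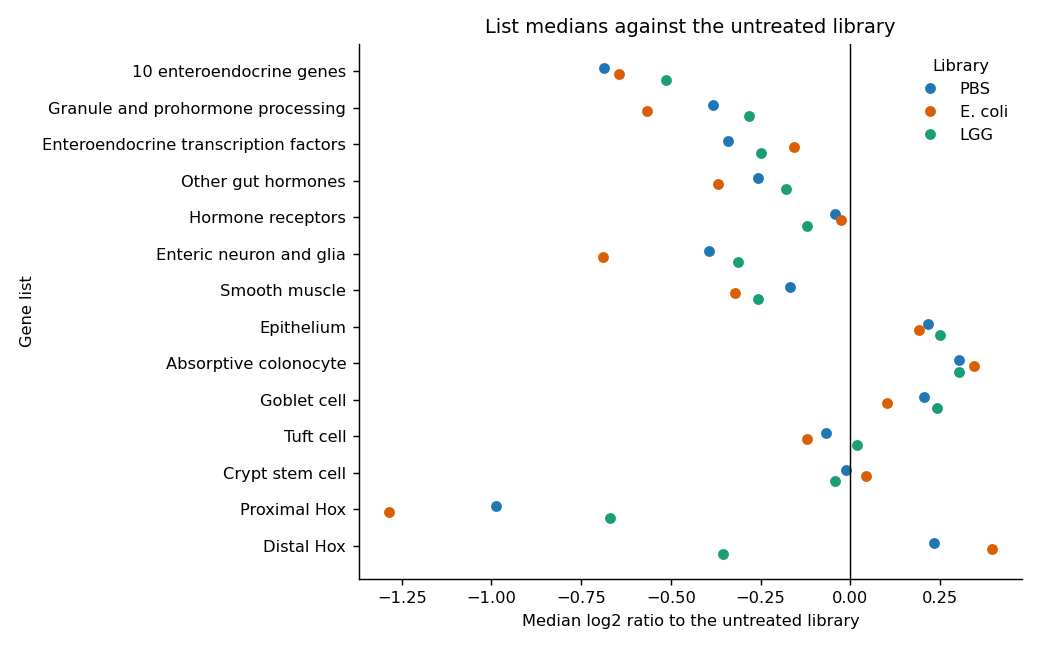
Median log2 ratio to the untreated library (x axis) for each gene list (y axis), with 1 point for each gavaged library. The medians of the 10 enteroendocrine genes, granule genes, lineage factors, other gut hormones and hormone receptors lie below 0. So do those of enteric neurons and glia, smooth muscle and proximal Hox genes. The epithelial list lies above 0, at 0.22, 0.19 and 0.25 for PBS, E. coli and LGG, as do the absorptive colonocyte and goblet cell lists.

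Markers of other cells in the piece moved beside the hormone genes, and their part in the results was not tested. Of 14 epithelial genes 13 had positive ratios in each gavaged library, with summed levels of 18012 CPM untreated, 20872 after PBS, 20718 after E. coli and 21992 after LGG. Most hormone genes were lower in the same gavaged libraries. Of 19 genes of enteric neurons and glia, which share Sst, Chgb and Cck expression with the endocrine cells, 18 were negative after PBS (median -0.39), 19 after E. coli (-0.69) and 19 after LGG (-0.31). Of all genes, 49.7%, 49.0% and 50.3% were negative in these comparisons. The summed level of the neuron and glia genes was 284, 220, 184 and 222 CPM in the untreated, PBS, E. coli and LGG libraries. Past the size rule 1 of the 19 was lower, Gfap after E. coli at -1.03, where 1.53% of all genes were. The medians for PBS, E. coli and LGG were 0.21, 0.10 and 0.24 for goblet cell genes, 0.30, 0.34 and 0.30 for absorptive colonocytes, -0.07, -0.12 and 0.02 for tuft cells, -0.01, 0.04 and -0.04 for crypt stem cells and -0.17, -0.32 and -0.26 for smooth muscle. Single tuft cell genes ranged from -0.43 to 0.28 over these comparisons. Of the 12 colonocyte genes, Slc20a1 (1.18) and Aqp8 (1.04) were higher and Cyp2c55 (-1.21) lower past the rule after E. coli, where 0.824% and 1.53% of all genes were. Peptidases that degrade hormones had medians of -0.18, -0.22 and -0.22 over 6 genes. Of these Mme, which encodes neprilysin, was lower past the rule after PBS at -1.19, where 0.782% of all genes were.

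Position along the gut is marked by Hox genes, and those of the proximal list were mostly lower in the gavaged libraries. Of 9 measured, 4 were past the size rule after PBS (median -0.99), 5 after E. coli (-1.29) and 0 after LGG (-0.67), all lower, where 0.782%, 1.53% and 0.588% of all genes were. These were Hoxb4, Hoxb6, Hoxb7 and Hoxb8, and after E. coli Hoxb5 as well, whereas Hoxb9, the most abundant of the list, was at -0.07, 0.01 and 0.01 for PBS, E. coli and LGG. Hoxb6 was at 33.1, 11.7, 7.95 and 17.0 CPM in the untreated, PBS, E. coli and LGG libraries, the same order of libraries as Nts. The distal list was mixed, with medians of 0.23, 0.40 and -0.35 for PBS, E. coli and LGG over 10 measured genes. After E. coli 2 of them were higher past the rule, Hoxb13 (1.10) and Hoxd12 (1.01), and 2 were lower, Hoxd9 (-1.36) and Hoxd8 (-1.06), where 0.824% and 1.53% of all genes were. After LGG 1 was lower, Hoxd10 (-1.13), and 0 were higher, and after PBS 0 passed. Hoxb13, the most abundant, was at 134, 248, 286 and 203 CPM in the untreated, PBS, E. coli and LGG libraries. Treatment and the stretch of colon sampled cannot be told apart with 1 library per condition.

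Pancreatic tissue also makes several of these hormones, and acinar enzyme genes were higher in the gavaged libraries: of 16 measured, 11 were higher past the size rule after PBS, 12 after E. coli and 12 after LGG, where 0.664%, 0.824% and 0.457% of all genes were. Their summed level was 134, 232, 341 and 242 CPM in the untreated, PBS, E. coli and LGG libraries, most of it Cela1 at 119, 195, 236 and 178 CPM. The defining islet genes were at or near 0: Ins2 had 0 counts in all 4 libraries and Ins1 had 1 count in the LGG library. Iapp had 18, 0, 6 and 8 counts, and of 9 islet genes only Ppy, which gut endocrine cells also make, reached a mean of 1 CPM.

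Similarity of pattern was measured as the root mean square difference, in log2 units, between levels centred over the 4 libraries. Among the members, Gcg and Chga were closest (0.057), then Chga and Chgb (0.080) and Tph1 and Neurod1 (0.096), and Nts and Insl5 were farthest apart (0.98). Over all measured genes, the nearest to the members' median pattern were Adamdec1, Asb2, Arl4d, Mier3, Naaladl1, 2810408A11Rik, Rnase4, Pex5l, Rnf150 and Mitf, with differences of 0.029 to 0.041. Adamdec1, a secreted protease of the ADAM family, was at 425, 272, 273 and 312 CPM in the untreated, PBS, E. coli and LGG libraries.

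Nearest to Nts were Agr3 (0.026), Isx (0.041), Hoxb8 (0.046), Prkg2 (0.052) and Osr2 (0.054). Isx, an intestine-specific homeobox factor, was at 104, 46.6, 36.0 and 61.5 CPM in the untreated, PBS, E. coli and LGG libraries, and Hoxb8 at 22.0, 8.85, 6.95 and 11.9 CPM. All 5 share with Nts the order untreated, LGG, PBS, E. coli from high to low, which follows from their being picked for likeness to Nts over these libraries. Nearest to Insl5 were Best2 (0.014), Cd79b (0.024), Slc6a8 (0.030), Sspo (0.038) and Lonrf1 (0.038). Best2, a bestrophin anion channel of the colon, was at 37.0, 66.4, 75.7 and 65.9 CPM, almost level for level with Insl5. Each pattern rests on 4 libraries only.

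**Figure D5:**
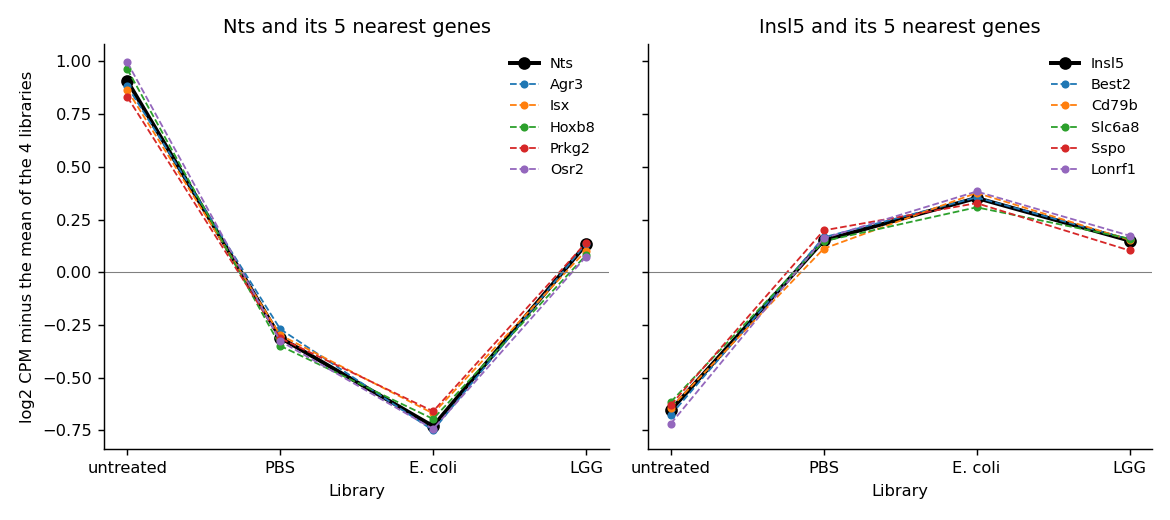
Log2 level centred over the 4 libraries (y axis) by library (x axis) for Nts (left) and Insl5 (right), each with the 5 genes of most similar pattern. Nts and its neighbours are highest in the untreated and lowest in the E. coli library, and Insl5 and its neighbours the reverse.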

How the data were processed

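Colon RNA was sequenced in 4 libraries, 1 per condition, from TruSeq RNA v2 libraries per the labels' protocols. TopHat2 and HOMER were used with mm9 per the submitters' processing notes. Their versions are not given in the sources used, nor is the use of strand in counting. The table the authors deposited holds expected counts per RefSeq gene, in steps of 0.5, which were rounded to whole numbers. TMM factors came from edgeR 4.0.16 in R 4.3.3, used for scaling only. CPM and log2 ratios, adding a library-scaled 0.5 counts to each side of a ratio, used Python 3.11.15, numpy 2.4.6, pandas 2.3.3 and scipy 1.17.1, with figures drawn in matplotlib 3.10.9. Ratio intervals are exact conditional binomial (Clopper-Pearson) at 95%. Levels per kb used the deposited transcript length.

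The 10 members and 21 gene lists were chosen with earlier results of these data known. All members are named; in lists described gene by gene, names were taken from genes past the size rule, the 2 most abundant genes and receptors of the hormones, not all of which are given, and lists given by medians alone name none; others were chosen after their values were seen, among them Neurog3, Ddc, Ffar2, Ffar4, Gast, Gip, Ins1, Ins2 and Iapp. Alternatives were DESeq2 1.42.0 size factors, library totals, upper-quartile factors, other filters, a prior of 5 counts, a 1.5-fold threshold, fractions of counts dropped, and centring on epithelial genes.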

Additional observations from a re-analysis of the deposited data

Results flagged for a closer look

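Nts differed from PBS in opposite directions in the bacterial libraries, with a log2 ratio of 0.44 (0.14 to 0.76) for LGG and -0.42 (-0.76 to -0.08) for E. coli. Both ratios use the same PBS library, and with 1 library per condition the difference between the bacteria was not tested; the direct LGG to E. coli ratio was 0.86 (0.59 to 1.14). Hoxb6 and Hoxb8, of the proximal Hox list, went the same ways against PBS, at 0.55 (0.30 to 0.80) and 0.43 (0.15 to 0.72) for LGG and -0.55 (-0.84 to -0.27) and -0.35 (-0.66 to -0.03) for E. coli, and their part in the Nts difference was not tested.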

How the results depend on the processing

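No paired analysis was possible because each condition has 1 library, and for the same reason no library could be left out. Of 360 member ratios recomputed under alternatives that can alter a ratio, 332 stayed inside the counting interval of the reported value, 28 moved outside it, and 9 changed sign, each with a reported size of at most 0.11. In PBS against untreated, 1 member passed the size rule as reported, 2 with library totals (Nts and Neurod1), 3 when centred on epithelial genes (Nts, Tph1 and Neurod1) and 8 at 1.5-fold. In LGG against untreated, 1 passed as reported, 2 with library totals and 2 with fractions of counts dropped (Tph1 and Neurod1), 3 when centred on epithelial genes (Nts, Tph1 and Neurod1) and 5 at 1.5-fold. In E. coli against untreated, 3 passed as reported (Nts, Insl5 and Tph1), 4 with library totals and 4 when centred on epithelial genes (each time Nts, Sst, Tph1 and Neurod1), 2 with upper-quartile factors (Nts and Tph1) and 6 at 1.5-fold, and in LGG against E. coli 1 passed at 1.5-fold (Nts) and 0 as reported. The shares of all genes past these altered rules were not counted, so the member counts under them stand without a background. Centring on epithelial genes shifted the median of all genes by -0.22, -0.25 and -0.19 for PBS, LGG and E. coli against untreated, and the members' medians became -0.90, -0.76 and -0.84. Library totals shifted the LGG median of all genes by -0.10. Depth limits Cck and Neurod1, with 24 counts each in the PBS library, and the scarce receptors.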
